A study of Mus musculus with 19 samples.

Results

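NRF2, encoded by *Nfe2l2*, is the transcription factor that switches on the antioxidant and detoxifying genes of a cell. KEAP1 holds it in the cytoplasm and marks it for degradation, and oxidants or electrophiles that modify KEAP1 release it. NRF2 then pairs with a small MAF protein and binds antioxidant response elements near genes for glutathione synthesis, the thioredoxin system, heme breakdown and quinone reduction. PARK7/DJ-1 is known as an oxidative stress sensor that has been linked to the stability of NRF2, and LPS, from the outer membrane of Gram-negative bacteria, activates microglia, the resident macrophages of the brain.

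The genes described are *Nfe2l2*, its inhibitor *Keap1* and 8 target genes (*Slc7a11*, *Gclc*, *Gclm*, *Txnrd1*, *Srxn1*, *Prdx1*, *Hmox1* and *Nqo1*), 10 of the 56980 genes in the count table. They were chosen by name as known members of the pathway, with earlier results of these data known. All 10 passed the filter on low counts. Each was followed in bulk RNA-sequencing libraries of CD11b+ brain cells from 19 male mice aged 3 to 4 months. The study asked how the loss of PARK7/DJ-1 alters the response of microglia to systemic inflammation. The KO mice carried a gene trap in *Park7* (B6;129P2-Park7 Gt(XE726)Byg/Mmucd) on a background repeatedly crossed to C57BL/6NCrl, in every cell of the body, and the wildtype mice were their littermates. The mice received 1 intraperitoneal injection of LPS (E. coli O55:B5, 4 µg/g body weight) or of saline vehicle (PBS, called baseline here) and were perfused 6 h later. The groups were wildtype after PBS (n = 4), wildtype after LPS (n = 5), KO after PBS (n = 5) and KO after LPS (n = 5), and each library came from 1 mouse. CD11b+ cells were enriched with magnetic beads from whole brains without olfactory bulb and cerebellum. CD11b is shared by microglia, monocytes, neutrophils and other macrophages, and in such bulk libraries fewer cells of a type and less RNA per cell cannot be told apart.

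Total counts per library ranged from 11936364 to 22788884. Levels are given as CPM, the counts of a gene scaled to a common library total after TMM normalization, and changes as log2FC from edgeR's quasi-likelihood test over 18739 genes. A gene was called for LPS against PBS when its Benjamini-Hochberg adjusted p was under 0.05 and its log2FC at least 0.5 in size, and for KO against wildtype when its unadjusted p was under 0.05 at the same fold change. *Park7* itself lay between 20.6 and 32.1 CPM in the wildtype libraries and between 0.457 and 5.38 CPM in the KO libraries, so that no library went against its genotype label. Of 9 microglia markers, 8 were lower after LPS in each genotype, and their summed level went from 24761 to 38852 CPM in wildtype PBS mice and 26090 to 39694 CPM in KO PBS mice to 10606 to 17076 CPM and 10977 to 17021 CPM after LPS. All 6 monocyte markers were higher after LPS in both genotypes. Their sums went from 26.3 to 41.3 CPM after PBS to 270 to 506 CPM after LPS in wildtype. In KO they went from 18.9 to 56.8 CPM to 163 to 411 CPM. The median monocyte sum after LPS was 382 CPM in wildtype and 225 CPM in KO, and 0 of these markers were called between genotypes. Of 8 neutrophil markers, 4 were higher in wildtype and 5 in KO, with sums that went without overlap from 52.5 to 97.6 CPM after PBS to 160 to 453 CPM after LPS in wildtype, and with overlap from 20.9 to 185 CPM to 100 to 447 CPM in KO. Of the other lists, 3 of 6 border-associated macrophage markers and 2 of 6 endothelial markers were lower after LPS in each genotype, 1 of 7 astrocyte markers was higher in each, and 1 further endothelial marker was higher in KO. Of 5 neuron markers 1 was higher in each genotype and 1 lower in wildtype, and 1 of 6 lymphocyte markers was high enough to be tested. The 6 oligodendrocyte markers were not called but varied within each group, from 558 to 11377 CPM over all libraries. The highest oligodendrocyte sum of each group was in replicate 2 of both wildtype groups and replicate 1 of both KO groups. The part of these shifts in the results below was not tested, apart from the fits that leave out those 4 libraries.

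Promoter windows of 250 bases before the start to 50 after it, from RefSeq on GRCm38.p6, were at hand for 8 of the 10 genes, all but *Hmox1* and *Gclc*. They were searched on both strands for the core of the antioxidant response element, TGACNNNGC, which was in 12.4% of all 32851 promoter windows. It was found for *Nfe2l2*, *Gclm*, *Prdx1*, *Srxn1* and the second of 3 listed starts of *Txnrd1*. A pair of further motifs was searched after the first result was seen. The AP-1 element TGANTCA, which can overlap the antioxidant core, was in 7.81% of windows, and among the members in those of *Srxn1* and *Prdx1*. The core of the amino acid response element, TGATGNAA, was in 3.97% of windows, and among the members only in that of *Slc7a11*.

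The sequences before the start are shown for the genes whose levels are followed most closely below, with the matched motif in capitals: *Nfe2l2*, the factor itself, *Txnrd1* and *Slc7a11*, which had the largest LPS responses among the members, and *Gclm* and *Prdx1*, which hold the antioxidant core but were not called. The capitals mark the antioxidant core in all but *Slc7a11*, where they mark both amino acid response element cores, the latter of them on the opposite strand. For *Srxn1* the core lies within the transcript, 29 bases after the start, and a stretch of 25 bases around it is given.
*Nfe2l2* (GRCm38.p6, chr2:75704664-75704913, minus strand): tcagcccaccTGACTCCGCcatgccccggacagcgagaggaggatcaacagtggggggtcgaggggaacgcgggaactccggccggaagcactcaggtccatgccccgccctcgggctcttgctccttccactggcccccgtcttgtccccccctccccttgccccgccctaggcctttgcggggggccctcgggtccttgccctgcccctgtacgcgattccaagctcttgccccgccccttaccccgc
*Txnrd1* (GRCm38.p6, chr10:82858956-82859205, plus strand): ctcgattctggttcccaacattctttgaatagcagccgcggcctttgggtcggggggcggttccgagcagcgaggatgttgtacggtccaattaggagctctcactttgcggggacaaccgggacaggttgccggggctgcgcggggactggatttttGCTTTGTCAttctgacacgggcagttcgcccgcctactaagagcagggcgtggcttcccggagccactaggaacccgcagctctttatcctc
*Slc7a11* (GRCm38.p6, chr3:50443614-50443863, minus strand): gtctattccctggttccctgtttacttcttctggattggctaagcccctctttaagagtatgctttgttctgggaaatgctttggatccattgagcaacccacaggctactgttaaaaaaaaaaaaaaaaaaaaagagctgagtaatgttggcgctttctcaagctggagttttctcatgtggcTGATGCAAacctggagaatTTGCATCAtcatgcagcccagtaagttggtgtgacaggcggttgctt
*Gclm* (GRCm38.p6, chr3:122245307-122245556, plus strand): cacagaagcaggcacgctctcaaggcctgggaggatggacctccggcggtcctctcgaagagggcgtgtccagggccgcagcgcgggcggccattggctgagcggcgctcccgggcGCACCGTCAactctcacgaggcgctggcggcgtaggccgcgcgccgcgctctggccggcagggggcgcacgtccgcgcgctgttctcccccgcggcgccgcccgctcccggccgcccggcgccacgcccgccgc
*Prdx1* (GRCm38.p6, chr4:116685349-116685598, plus strand): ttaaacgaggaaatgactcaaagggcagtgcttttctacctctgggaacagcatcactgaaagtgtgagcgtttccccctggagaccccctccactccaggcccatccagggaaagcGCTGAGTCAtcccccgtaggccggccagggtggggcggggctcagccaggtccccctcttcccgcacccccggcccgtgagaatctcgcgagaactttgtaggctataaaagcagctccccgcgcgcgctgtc
*Srxn1* (GRCm38.p6, chr2:152105544-152105568, plus strand): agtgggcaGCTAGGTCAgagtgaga

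The antioxidant core began 240 bases before the start of *Nfe2l2*, 134 before that of *Gclm*, 133 before that of *Prdx1* and 92 before the second start of *Txnrd1*. The *Prdx1* match also contained an AP-1 element. In *Slc7a11* the amino acid response element cores began 66 and 47 bases before the start. A match describes these letters and is no evidence that a factor bound there.

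*Nfe2l2* and 4 of the 8 target genes rose after LPS in both genotypes. *Slc7a11* and *Txnrd1* had the largest changes, and *Hmox1*, *Srxn1* and *Nfe2l2* rose by 2.01-fold to 2.53-fold. *Gclc*, *Gclm*, *Nqo1*, *Keap1* and *Prdx1* were not called in either genotype. Thus 5 of the 10 members were higher and 0 lower in wildtype mice, against 18.4% of all genes called higher and 17.4% called lower. In KO mice, 5 of the 10 were higher and 0 lower, against 20.1% and 19%. The median log2FC of the 10 members was 0.74 in wildtype and 0.75 in KO, beside -0.06 and -0.01 over all genes tested. The LPS and PBS values did not overlap, with all LPS values above, for 7 of the 10 members in wildtype and for 5 in KO, while this held for 20.8% and 16.2% of all genes.

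**Figure D1:**
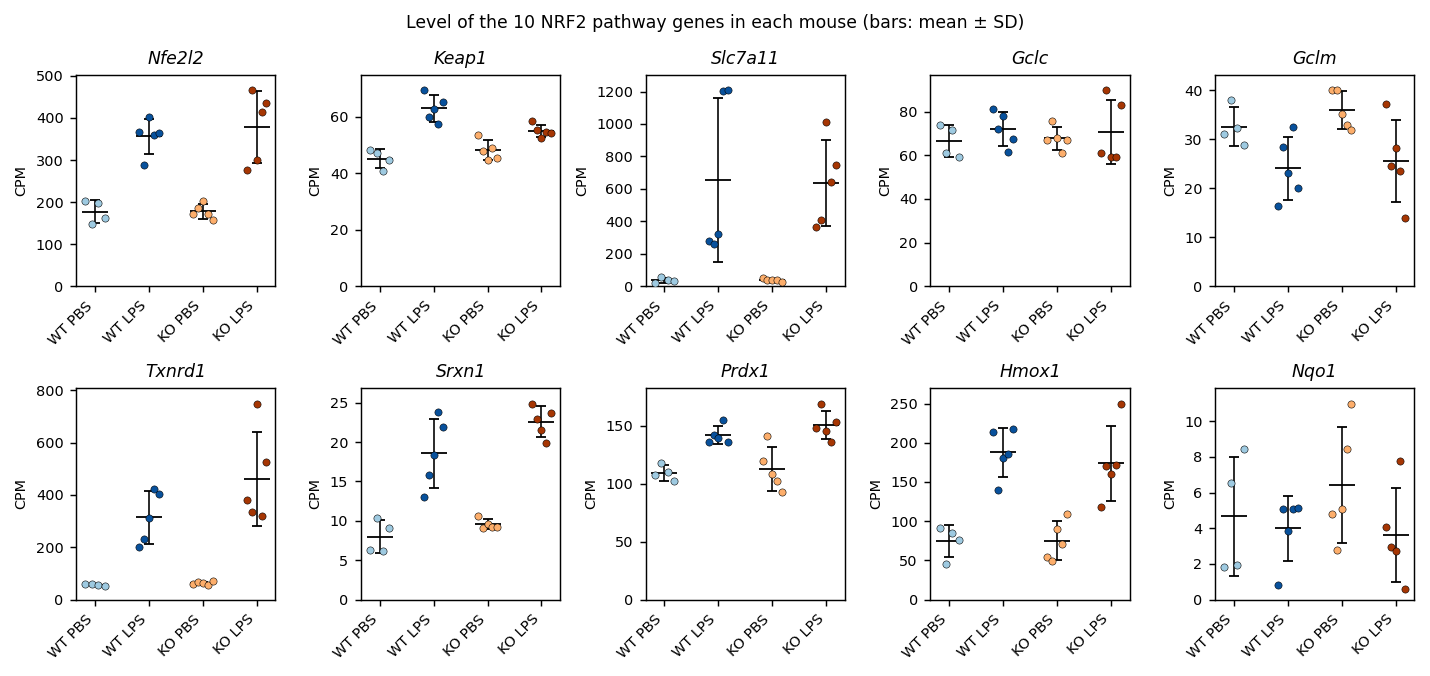
Level of each of the 10 genes in every mouse, as CPM on a linear axis from 0, by genotype and treatment, with points for single mice and bars for the mean ± SD. *Slc7a11* and *Txnrd1* were far above their baseline values in all 10 LPS mice, while the values of *Gclc* and *Nqo1* overlapped between treatments.

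*Nfe2l2* (ENSMUSG00000015839, GRCm39 chromosome 2, 75504739 to 75534985, minus strand) was at 202, 147, 197 and 163 CPM in the wildtype PBS mice and at 366, 289, 402, 360 and 364 CPM in the wildtype LPS mice. In KO mice it was at 172, 187, 203, 171 and 158 CPM after PBS and at 277, 466, 299, 415 and 436 CPM after LPS. Every LPS value lay above every PBS value in each genotype, and the KO LPS mice were more spread than the wildtype ones. The log2FC was 1.01 (SE 0.154, adjusted p = 3.09e-05) in wildtype and 1.09 (SE 0.144, adjusted p = 4.66e-06) in KO. An antisense lncRNA, E030042O20Rik, with a median of 218 counts, shares 278 exonic bases with *Nfe2l2*, and whether the counting used strand was not given in the sources used here. The same doubt holds for *Keap1*, *Gclm*, *Srxn1* and *Prdx1*, whose exons share up to 608, 852, 242 and 245 bases with antisense lncRNAs.

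*Keap1* (ENSMUSG00000003308, chromosome 9, 21141026 to 21150679, minus strand), which encodes the adaptor that hands NRF2 to a ubiquitin ligase, was at 48.1, 47.2, 40.7 and 44.8 CPM in wildtype PBS mice and at 69.4, 59.8, 62.6, 57.5 and 65.4 CPM in wildtype LPS mice. The groups did not overlap, and the log2FC of 0.48 (SE 0.085, adjusted p = 0.000137) stayed just under the fold threshold. In KO mice, *Keap1* was at 53.5, 47.8, 44.7, 49.1 and 45.3 CPM after PBS and at 58.4, 55.3, 52.4, 54.5 and 54.2 CPM after LPS. These ranges overlapped, with a log2FC of 0.19 (SE 0.079, adjusted p = 0.0526). The interaction of genotype and LPS was -0.29 on the log2 scale, with an unadjusted p under 0.05 and an adjusted p of 1.0, so that a difference between the responses was not shown after correction. Leaving out replicate 1 or 2 of the wildtype PBS mice, or replicate 2 or 4 of the wildtype LPS mice, brought the wildtype log2FC to 0.511 to 0.516, past the fold threshold, and so did the subset of mice with animal numbers 531 to 568 (0.528).

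*Slc7a11* (ENSMUSG00000027737, chromosome 3, 49846975 to 50398070, minus strand) encodes the cystine importer xCT, which supplies cysteine for glutathione. It was at 21.0, 59.6, 35.7 and 33.7 CPM in wildtype PBS mice and at 276, 260, 322, 1201 and 1208 CPM in wildtype LPS mice. KO mice had 48.8, 36.5, 39.7, 36.4 and 24.4 CPM after PBS and 362, 405, 1013, 644 and 747 CPM after LPS. All LPS mice were several-fold above all PBS mice, and the wildtype LPS mice had no value between 322 and 1201 CPM. The rise was 17.4-fold in wildtype (log2FC 4.12, SE 0.537, adjusted p = 4.89e-06) and 17.1-fold in KO (log2FC 4.09, SE 0.488, adjusted p = 1.35e-06). In the same order of wildtype LPS mice, the monocyte marker sum was 353, 270, 382, 506 and 420 CPM and the neutrophil marker sum 160, 238, 411, 453 and 229 CPM, and their part in the spread of *Slc7a11* was not tested.

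In that order the wildtype LPS mice carried animal numbers 531, 551, 552, 581 and 634, so that the values above 1000 CPM came from the 2 highest numbers of that group. The KO LPS mice carried 554, 562, 568, 586 and 645, and there the highest value, 1013 CPM, came from number 568, while numbers 586 and 645 had 644 and 747 CPM. What the number stands for is not stated, and no meaning is given to it where mice are grouped by it below. Among the mice numbered 531 to 568, a subset chosen after the data were seen, the *Slc7a11* log2FC for LPS was 2.92 in wildtype and 3.86 in KO, and both were called. Between KO and wildtype after LPS, *Slc7a11* had a log2FC of -0.04 over all mice (95% interval -0.94 to 0.85). Within numbers 531 to 568 the difference was 1.06, higher in KO, and passed the unadjusted threshold but not the adjusted one (adjusted p = 0.712). That subset leaves out both wildtype LPS mice above 1000 CPM and keeps the KO LPS mouse at 1013 CPM. It therefore cannot decide whether the genotypes differ. With the number range as a factor over all 19 mice, the difference was 0.12 and was not called.

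**Figure D2:**
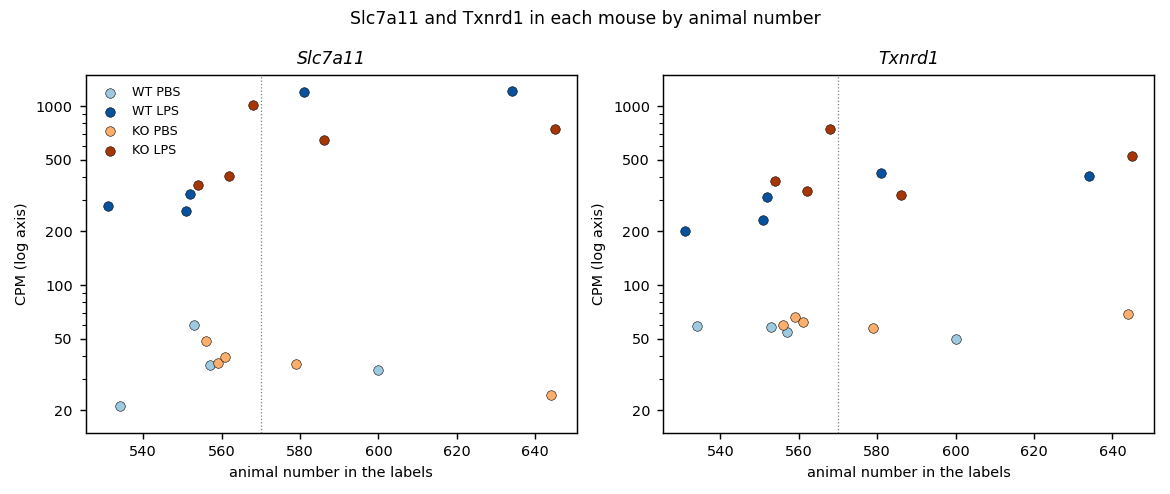
CPM of *Slc7a11* and *Txnrd1* on a log axis for each mouse against the animal number in the labels, coloured by group, with a dotted line between numbers 568 and 579. Left of the line the 3 wildtype LPS mice had 260 to 322 CPM of *Slc7a11*, and right of it 1201 and 1208 CPM, while the KO LPS mice had 362 to 1013 CPM on the left and 644 and 747 CPM on the right.

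The partner subunit of xCT, *Slc3a2*, rose in both genotypes, from 323 ± 17.0 CPM (SD, n = 4) to 576 ± 35.6 CPM (SD, n = 5) in wildtype and from 302 ± 31.8 CPM to 556 ± 125 CPM (SD, n = 5 each) in KO. The next step, the joining of cysteine to glutamate, is made by glutamate-cysteine ligase, whose catalytic subunit is *Gclc* and whose modifier subunit is *Gclm*. *Gclc* (ENSMUSG00000032350, chromosome 9, 77661797 to 77701770, plus strand) ranged from 59.3 to 74 CPM in wildtype PBS mice and from 61.6 to 81.0 CPM in wildtype LPS mice, and from 60.9 to 75.6 CPM and 59.3 to 89.8 CPM in KO. Its groups overlapped, and its log2FC was 0.12 (95% interval -0.16 to 0.39) in wildtype and 0.06 (95% interval -0.20 to 0.32) in KO. A change of *Gclc* as large as that of *Nfe2l2* is outside these intervals.

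*Gclm* (ENSMUSG00000028124, chromosome 3, 122039126 to 122065061, plus strand) was at 31.0, 38.1, 32.3 and 28.8 CPM in wildtype PBS mice and at 16.4, 28.5, 23.1, 32.4 and 20.1 CPM after LPS. In KO mice it was at 40.0, 40.0, 35.2, 32.8 and 31.8 CPM after PBS and at 37.2, 24.6, 28.2, 23.6 and 14 CPM after LPS. Most LPS values lay below the PBS values, with 1 overlapping mouse in each genotype, replicate 4 in wildtype and replicate 1 in KO. The log2FC was -0.43 (adjusted p = 0.125) in wildtype and -0.49 (adjusted p = 0.0588) in KO. The KO value passed both thresholds in 5 of the alternative fits, at -0.53 to -0.62, and without replicate 1 of the KO LPS mice at -0.65.

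*Txnrd1* (ENSMUSG00000020250, chromosome 10, 82669785 to 82733546, plus strand) encodes the thioredoxin reductase of the cytosol. It was at 59.3, 58.4, 54.5 and 49.7 CPM in wildtype PBS mice and at 200, 230, 312, 423 and 405 CPM after LPS. In KO mice it was at 60.0, 65.9, 62.5, 57.2 and 68.8 CPM after PBS and at 379, 334, 749, 318 and 525 CPM after LPS. The baseline values were tight in both genotypes, no LPS value came near them, and replicate 3 of the KO LPS mice was the highest of all. *Txnrd1* rose 5.66-fold in wildtype (log2FC 2.50, SE 0.255, adjusted p = 2.81e-07) and 7.33-fold in KO (log2FC 2.87, SE 0.238, adjusted p = 1.50e-08).

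*Srxn1* (ENSMUSG00000032802, chromosome 2, 151947436 to 151957687, plus strand) encodes sulfiredoxin, which restores overoxidized peroxiredoxins. It was at 6.31, 10.4, 6.11 and 9.13 CPM in wildtype PBS mice and at 13, 15.8, 18.3, 23.8 and 21.9 CPM after LPS. KO mice had 10.6, 9.10, 9.60, 9.22 and 9.24 CPM after PBS and 24.9, 22.9, 21.5, 19.9 and 23.7 CPM after LPS. The groups did not overlap in either genotype, and the KO mice were closer to each other than the wildtype mice. In wildtype the change was 1.22 on the log2 scale (SE 0.186, adjusted p = 2.95e-05), and in KO it was 1.24 (SE 0.172, adjusted p = 7.85e-06).

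*Prdx1* (ENSMUSG00000028691, chromosome 4, 116532123 to 116558398, plus strand), a peroxiredoxin that reduces hydrogen peroxide, was at 107, 118, 110 and 102 CPM in wildtype PBS mice and at 136, 142, 139, 155 and 136 CPM after LPS. In KO mice it was at 119, 141, 108, 102 and 92.7 CPM after PBS and at 148, 169, 145, 136 and 153 CPM after LPS. The wildtype groups did not overlap, and in KO the highest PBS mouse exceeded the lowest LPS mouse. The log2FC of 0.37 in wildtype (adjusted p = 0.00701) and 0.42 in KO (adjusted p = 0.00165) passed the p-value but not the fold threshold. Leaving out each mouse in turn gave 0.369 to 0.509 in KO, and the highest of these, without replicate 2 of the KO PBS mice, was called. *Prdx1* and *Gclm* have processed pseudogene copies, with which reads may be shared.

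*Hmox1* (ENSMUSG00000005413, chromosome 8, 75820241 to 75827217, plus strand) encodes heme oxygenase 1, which opens heme to biliverdin, iron and carbon monoxide. It was at 91.2, 45.2, 84.4 and 75.8 CPM in wildtype PBS mice and at 214, 140, 181, 186 and 217 CPM after LPS. KO mice had 54.6, 49.7, 90.4, 70.8 and 109 CPM after PBS and 118, 170, 160, 171 and 250 CPM after LPS. The treatment groups did not overlap, although in KO the gap between the highest PBS and the lowest LPS mouse was narrow. The log2FC was 1.34 (SE 0.252, adjusted p = 0.000263) in wildtype and 1.21 (SE 0.233, adjusted p = 0.000272) in KO.

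*Nqo1* (ENSMUSG00000003849, chromosome 8, 108113835 to 108129934, minus strand), the quinone reductase often read as a marker of NRF2 activity, was the least counted member, with a median of 72 and a lowest value of 8 counts per library. It was at 1.82, 6.55, 1.91 and 8.44 CPM in wildtype PBS mice and at 0.835, 5.06, 3.85, 5.07 and 5.12 CPM after LPS. KO mice had 4.79, 2.77, 5.08, 8.43 and 11 CPM after PBS and 4.05, 2.97, 2.75, 7.77 and 0.577 CPM after LPS. The groups overlapped throughout, and mice of 1 group differed several-fold. The log2FC was -0.23 (95% interval -1.52 to 1.06) in wildtype and -0.81 (95% interval -2.03 to 0.40) in KO, so that a change of 2-fold in either direction could not be told from none in wildtype.

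**Figure D3:**
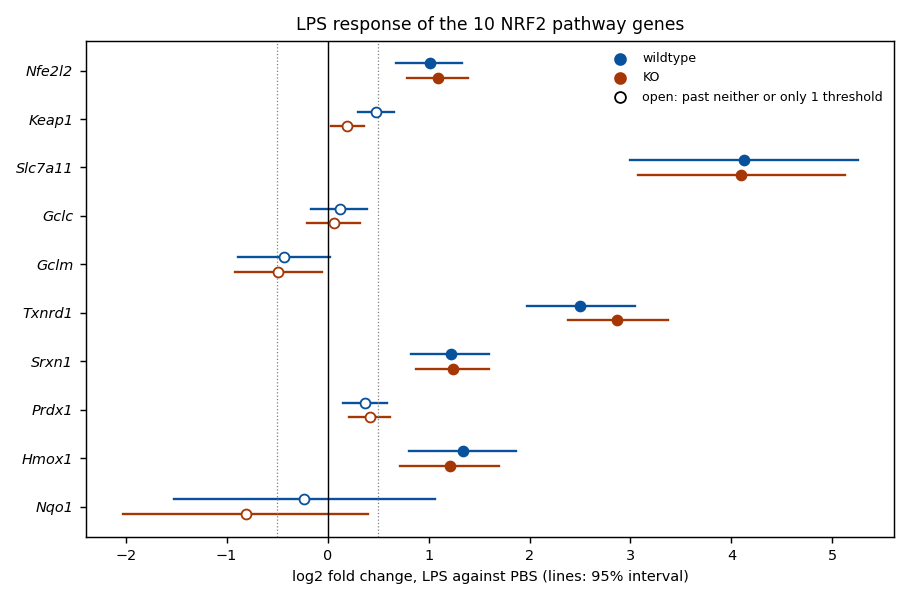
Log2FC of LPS against PBS for the 10 genes in wildtype and KO mice, with lines for the 95% interval, filled points for genes past both thresholds and dotted lines at the fold threshold of 0.5. *Slc7a11* (4.12 and 4.09) and *Txnrd1* (2.50 and 2.87) stand apart, and *Gclm* and *Nqo1* lie below 0 in both genotypes without passing.

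Scaled to exon length, *Hmox1* was the most abundant member at baseline in wildtype mice, with 42.1 ± 11.5 CPM per kb (SD, n = 4), followed by *Nfe2l2* with 32.5 ± 4.83 and *Prdx1* with 26.3 ± 1.54. *Slc7a11* was at 2.41 ± 1.04 CPM per kb, *Nqo1* at 1.70 ± 1.22 and *Srxn1* at 0.851 ± 0.227. After LPS the level of *Slc7a11* in wildtype mice was 42.1 ± 32.4 CPM per kb (SD, n = 5), and that of *Txnrd1* was 44.3 ± 14.2. *Prdx1* was at 34.0 ± 1.87, below each of these by less than the SD of *Slc7a11* or of *Txnrd1*. In KO LPS mice *Hmox1* was at 98.7 ± 27.1, *Nfe2l2* at 69.4 ± 15.6, *Txnrd1* at 65.1 ± 25.5 and *Slc7a11* at 40.8 ± 17.1 CPM per kb (SD, n = 5 each). The length is that of all annotated exons together, so that genes with many rarely used exons are understated.

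Between KO and wildtype mice after LPS, 1 of the 10 members was called. *Txnrd1* was higher in KO after LPS, at 461 ± 180 CPM (SD, n = 5) against 314 ± 100 CPM (SD, n = 5). Its log2FC was 0.55 (SE 0.222), past the unadjusted threshold (edgeR p = 0.0221, exact permutation test on log2 CPM, two-sided, p = 0.135) but with an adjusted p of 1.0, and the groups overlapped. The called members thus numbered 1 higher and 0 lower, where 0.544% of all genes were called higher and 0.763% lower. With total counts in place of TMM, the all-gene split went from 102 higher and 143 lower to 70 and 209, and the *Txnrd1* log2FC was 0.49, under the fold threshold. The call was also lost without replicate 3 of the KO LPS mice (0.31), without replicate 1 (0.43) or 2 (0.47) of the wildtype LPS mice, in a fit of the 2 LPS groups alone (0.55) and without the library of highest oligodendrocyte markers in each group (0.52), the last pair because the p-value missed its threshold. Among the mice numbered 531 to 568 the difference was 0.98 and was called, with an adjusted p of 0.712. The LPS mice outside this subset had 318 and 525 CPM in KO and 423 and 405 CPM in wildtype.

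Of the other members after LPS, *Keap1* was 55.0 ± 2.21 CPM in KO and 63.0 ± 4.68 CPM in wildtype (SD, n = 5 each). Its log2FC of -0.20 was under the fold threshold, with an edgeR p of 0.0229, an exact two-sided permutation p of 0.0159 and an adjusted p of 1.0. *Srxn1* had a log2FC of 0.28 (95% interval -0.07 to 0.64) and *Nfe2l2* of 0.09 (-0.21 to 0.39). *Hmox1* had -0.11 (-0.59 to 0.37), *Prdx1* 0.08 (-0.12 to 0.29), *Gclc* -0.03 (-0.29 to 0.23), *Gclm* 0.08 (-0.35 to 0.52) and *Nqo1* -0.13 (-1.35 to 1.10). The intervals of *Nfe2l2*, *Keap1*, *Prdx1* and *Gclc* lie within a log2 difference of 0.5 in size, while those of *Slc7a11* and *Nqo1* reach past it in both directions. The KO and wildtype values overlapped for all 10 members after LPS and at baseline, as they did for nearly all genes: 0.219% of genes had groups without overlap after LPS and 0.971% at baseline.

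At baseline 0 of the 10 members were called by edgeR in KO against wildtype, where 0.224% of all genes were called higher and 0.576% lower, and 0 had an unadjusted p under 0.05. DESeq2 also called 0. The all-gene split of 42 higher and 108 lower became 94 and 81 without replicate 2 of the wildtype PBS mice, 72 and 67 without replicate 4, and 41 and 67 without replicate 3 of the KO PBS mice, with 0 members called each time. The log2FC ranged from -0.01 for *Slc7a11* to 0.45 for *Nqo1*, whose 95% interval was -0.83 to 1.74. *Nfe2l2* was at 177 ± 26.4 CPM (SD, n = 4) in wildtype and 178 ± 17.2 CPM (SD, n = 5) in KO. The interaction of genotype and LPS passed an adjusted p of 0.05 for 0 of 18739 genes in edgeR and in DESeq2. At an unadjusted p under 0.05 it gave 180 genes (0.961%), of which *Keap1* was the only member. For *Txnrd1* the interaction was 0.37 (95% interval -0.31 to 1.05, adjusted p = 1.0), between 0.128 and 0.504 when each mouse was left out in turn, with the lowest value without replicate 3 of the KO LPS mice, and 0.84 among numbers 531 to 568, where it did not pass either, so that the larger *Txnrd1* response in KO was not shown to differ from that in wildtype.

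**Figure D4:**
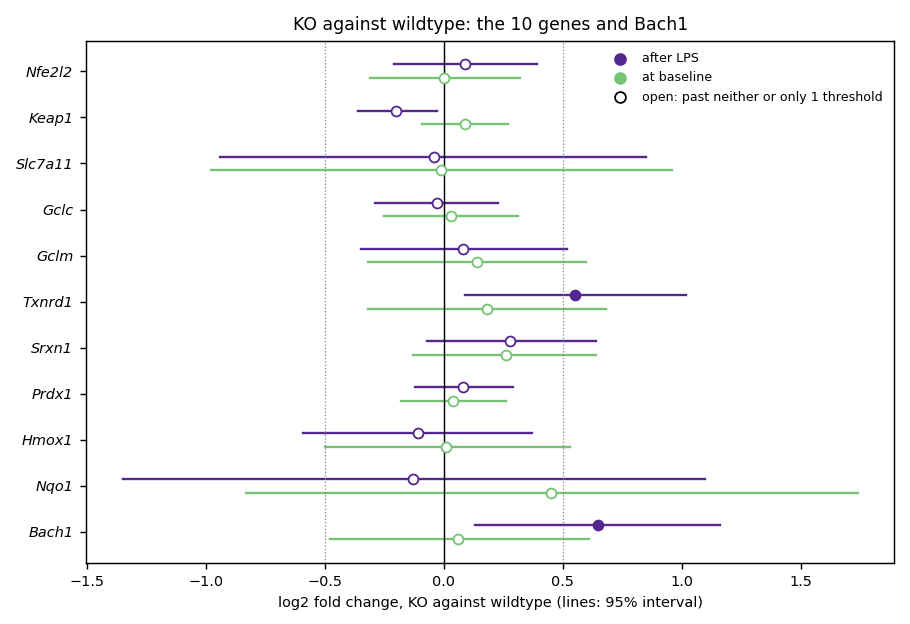
Log2FC of KO against wildtype for the 10 genes and *Bach1*, after LPS and at baseline, with lines for the 95% interval, filled points for genes past both thresholds and dotted lines at 0.5. *Txnrd1* (0.55) and *Bach1* (0.65) are filled after LPS, and no point is filled at baseline.

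A list of 54 other genes of the pathway was followed by role, of which 52 were tested. *Gpx2* (0 to 9 counts per library) and *Gsta3* (0 to 12) were too low. In wildtype 17 of the 52 were higher and 14 lower after LPS, and in KO 16 were higher and 16 lower. The shares of all genes were 18.4% higher and 17.4% lower in wildtype and 20.1% and 19% in KO, against which the counts by role are also to be read. The same 15 genes were higher and the same 14 lower in both genotypes. The median log2FC of the list was -0.01 in wildtype and -0.03 in KO, beside -0.06 and -0.01 over all genes tested. *G6pdx* and *Tkt* were called higher in wildtype alone, *Mafg* higher in KO alone, and *Blvra* and *Ugdh* lower in KO alone. None of these 5 had an interaction past an adjusted p of 0.05.

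Among the partners and competitors of NRF2, 5 of 7 were higher and 1 lower in wildtype, and 6 of 7 higher and 1 lower in KO. *Nfe2*, a related factor known from blood cells, went from 0.737 ± 0.226 to 7.05 ± 2.73 CPM in wildtype and from 0.735 ± 0.364 to 6.15 ± 1.99 CPM in KO (SD), with log2FC of 3.24 and 3.06. *Maff*, a small MAF partner of NRF2, rose with log2FC of 2.37 and 3.14. *Bach1*, a repressor that competes with NRF2 at antioxidant response elements and at *Hmox1* in particular, rose by 0.85 in wildtype and 1.44 in KO. *Bach2*, its relative in lymphocytes and macrophages, fell by 1.64 and 1.44 on the log2 scale. The monocyte and neutrophil marker sums given above were also higher after LPS, the neutrophil sums with overlap in KO. Their part in the rise of *Nfe2* was not tested.

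*Bach1* was the only gene of the list called in KO against wildtype after LPS, where it was at 720 ± 361 CPM in KO and 460 ± 115 CPM in wildtype (SD, n = 5 each). Its log2FC was 0.65 (SE 0.245, edgeR p = 0.0167, exact two-sided permutation p = 0.135), with an adjusted p of 1.0. Without replicate 3 of the KO LPS mice, also the highest in *Txnrd1*, the *Bach1* difference was 0.31, and in a fit of the 2 LPS groups alone it was 0.64 with a p-value just over the threshold, so that the call was lost in both. Among the mice numbered 531 to 568 it was 0.98 and was called. At baseline none of the 52 genes was called between genotypes. The shares of all genes called were 0.544% higher and 0.763% lower after LPS, and 0.224% and 0.576% at baseline.

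Of 7 genes for the turnover and release of NRF2, 2 were higher and 1 lower in each genotype. *Sqstm1*, the autophagy receptor p62 that sequesters KEAP1, rose by 0.50 in wildtype and 0.75 in KO on the log2 scale, and *Dpp3*, another KEAP1 binder, by 0.69 and 0.63. *Palb2*, a DNA repair partner that also binds KEAP1, fell by 0.79 and 0.96. The ligase genes *Cul3* and *Rbx1* were not called in either genotype.

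Of 12 tested genes for glutathione synthesis, use and transport, 4 were higher and 2 lower in each genotype. *Glrx*, a glutaredoxin, rose from 10.9 ± 1.28 to 71.4 ± 23.7 CPM in wildtype and from 11.7 ± 2.07 to 62.5 ± 12.7 CPM in KO (SD), with log2FC of 2.71 and 2.41. *Gsr*, the reductase that regenerates glutathione, rose by 2.05 and 1.72. *Gss*, the second enzyme of glutathione synthesis, had a log2FC of 0.10 in both genotypes and was not called. The genes called lower were *Gpx4*, the peroxidase that reduces lipid hydroperoxides (log2FC -0.55 in wildtype and -0.56 in KO), and *Gstp1*, a glutathione transferase (-0.69 in both).

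In the thioredoxin group 2 of 3 genes were higher in each genotype. *Txn1*, the substrate of *Txnrd1*, rose by 1.46 in wildtype and 1.15 in KO, and *Prdx6* by 0.78 in both. Of 6 genes that supply NADPH, the electron source of both systems, 3 were higher and 1 lower in wildtype, and 1 higher and 1 lower in KO. *Pgd*, of the pentose phosphate pathway, rose by 1.12 and 1.01. *Tkt* had a log2FC of 0.59 in wildtype and 0.43 in KO, past the fold threshold in wildtype alone. *Idh1*, the cytosolic isocitrate dehydrogenase, fell by 1.21 and 1.41 on the log2 scale.

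Of 7 heme and iron genes, 1 was higher and 4 lower in wildtype, and 1 higher and 5 lower in KO. *Fth1*, the heavy chain of the iron store ferritin, rose from 557 ± 128 to 2127 ± 505 CPM in wildtype and from 542 ± 147 to 1953 ± 373 CPM in KO (SD). *Slc40a1*, the iron exporter ferroportin, fell from 278 ± 71.1 to 25.0 ± 11.4 CPM in wildtype and from 290 ± 43.4 to 22.2 ± 3.78 CPM in KO, with log2FC of -3.47 and -3.71. *Blvrb*, a biliverdin reductase, fell by 1.18 and 1.19 on the log2 scale. *Fth1* has many processed pseudogene copies, with which reads may be shared.

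Of 10 genes for quinone, aldehyde and drug metabolism, 0 were higher, 5 were lower in wildtype and 6 were lower in KO. The lower genes were led by *Ephx1*, an epoxide hydrolase (log2FC -1.26 and -1.32), *Cbr1*, a carbonyl reductase (-0.96 and -1.27), and *Cat*, the catalase of peroxisomes (-1.02 and -1.07). The median of this group was -0.69 in wildtype and -0.70 in KO. *Nqo1*, a member with the same role, was not called. The microglia marker sum was lower in the same LPS mice, and its part in these values was not tested.

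**Figure D5:**
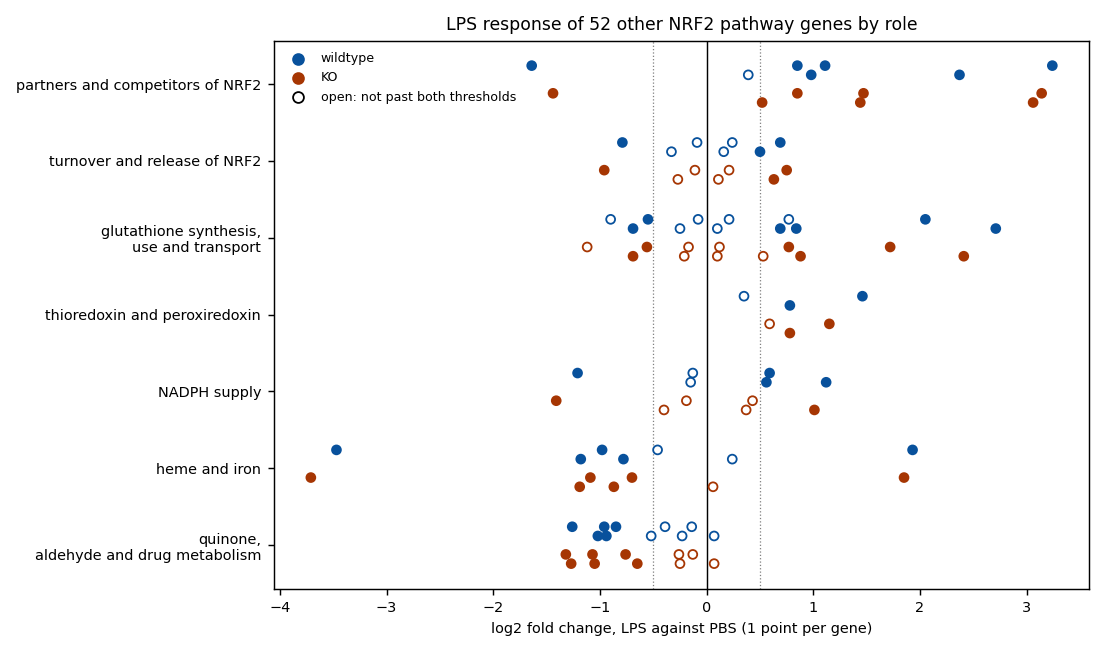
Log2FC of LPS against PBS for 52 other genes of the NRF2 pathway, 1 point per gene and genotype, in rows by role, filled where the gene passed both thresholds and with dotted lines at 0.5. Most partners and competitors of NRF2 lie to the right of 0, and no gene of the quinone, aldehyde and drug metabolism row is filled on the right.

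The genes whose log2 CPM over the 19 libraries was closest to that of 3 members were sought among 9716 genes with a mean of at least 10 CPM, after centring each gene on its own mean. For *Nfe2l2* they were *Nup153*, *Rdh13* and *Mcl1*, with root mean square differences of 0.127, 0.132 and 0.136 on the log2 scale. For *Hmox1* they included *Cited2* (0.234) and *Rabggtb* (0.241). Those of *Nqo1* were *Pcolce2* (0.224), *Chchd10* (0.229) and *Col9a3* (0.236). This likeness describes these libraries, which differ most by treatment.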

How the data were processed

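Gene counts were measured in CD11b+ brain cells of 19 mice. Per the methods, the authors made strand-marking libraries from ribosome-depleted RNA, read them from both ends at 75 bp, removed adapters (Cutadapt), and used STAR 2.7.9a with the mouse genome GRCm39 and Ensembl genes for alignment and counting. The table they deposited holds unnormalized counts per gene and mouse, and the strand setting of the count is not given in the sources used here. Gene names and coordinates came from the GENCODE M39 annotation of GRCm39, which named 56236 of 56980 genes, and promoter sequences from RefSeq on GRCm38.p6.

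The analysis used R 4.3.3 and edgeR 4.0.16: filterByExpr (minimum count 10, minimum total 15), TMM, and a quasi-likelihood fit of all 19 libraries in 4 groups, with Benjamini-Hochberg adjustment over all 18739 genes tested. Printed p-values are from edgeR unless an exact permutation test is named, which was run on log2 CPM (prior count 2) for 3 genes after the edgeR results were known. The SE is the size of the log2FC over the root of F, and the 95% interval uses the t quantile of the test's degrees of freedom. The scripts were tested on simulated counts. No libraries of 1 group were alike within counting error (chi-square per degree of freedom at least 7.04). That check cannot tell separate preparations of the same mouse from different mice. Each library carried its own animal number in the labels and was taken as 1 replicate. The median total count per library was 17211939, and the SEs and intervals include the variation between mice.

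The members, lists, markers and tests were chosen with earlier results of these data known. Named genes are the 10 members, *Park7*, up to 3 called genes of each role with the largest mean change in size, pathway genes called between genotypes, genes not tested, and the 3 nearest genes of *Nfe2l2*, *Hmox1* and *Nqo1*, of which 1 is not reported here. *G6pdx*, *Mafg*, *Blvra*, *Ugdh*, *Cul3*, *Rbx1*, *Gss*, *Gpx4* and *Gstp1* were named after their values were seen. Alternatives were another threshold, DESeq2 size factors, total counts, other low-count filters, DESeq2 1.42.0, the replicate number as a block, the animal number range, the compared groups alone, each mouse left out, and, added after the data were seen, the 4 libraries of highest oligodendrocyte markers left out and mice numbered 531 to 568 alone.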

Additional observations from a re-analysis of the deposited data

Results flagged for a closer look

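Of 40 tests of a member in 1 group, 1 held a library far from the others. *Prdx1* in replicate 4 of the wildtype LPS mice was at 155 CPM, while the nearest other mouse of the group was at 142 CPM, a gap of 0.713 of the group's range. Chance flags about 1 in 20 such groups. The LPS response of *Prdx1* in wildtype stayed between 0.339 and 0.427 on the log2 scale when each mouse was left out in turn.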

How the results depend on the processing

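The 5 members called higher after LPS (*Slc7a11*, *Txnrd1*, *Hmox1*, *Srxn1* and *Nfe2l2*) were called in both genotypes under every alternative run. Results between genotypes moved more. With an adjusted p under 0.05 in place of the unadjusted one, KO against wildtype gave 2 genes after LPS and 1 at baseline, and 0 members after LPS. With an unadjusted p the interaction gave 180 genes and 1 member, *Keap1*. Without the low-count filter KO against wildtype gave 854 genes after LPS and 680 at baseline, and with at least 10 counts in every library 111 and 58. A fit of the 2 LPS groups alone gave 105 genes and 0 members. Total counts and the removal of the 4 libraries of highest oligodendrocyte markers each gave 0 members after LPS. Mice numbered 531 to 568 alone gave 847 genes after LPS and 341 at baseline, and 3 members higher in KO after LPS, *Txnrd1* (0.98), *Slc7a11* (1.06) and *Srxn1*, and *Keap1* was called in wildtype. The animal number range as a factor gave 271 genes at baseline and turned *Slc7a11* after LPS to 0.12. Leaving out each mouse in turn gave 228 to 434 genes after LPS, the highest without replicate 5 of the KO LPS mice, and 0 to 1 members, with *Slc7a11* between -0.28 and 0.30. It moved *Nqo1* between -0.50 and 0.25 in wildtype and between -1.29 and -0.52 in KO, where it was not called, and *Gclc* in KO between -0.045 and 0.124. *Gclc* in KO was -0.06 with total counts and -0.002 with at least 10 counts in every library. The causes of these moves were not tested. With total counts the median log2FC over all genes after LPS was -0.149 in wildtype and -0.116 in KO, against -0.063 and -0.010. The part of that shift in the lower values was not tested.

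Same-numbered mice are different animals, and the labels name nothing that a number marks. The deviations of same-numbered mice correlated from -0.042 to 0.576 between treatments in wildtype (3 of 4 pairs over 0.1), from 0.027 to 0.544 in KO (4 of 5 over 0.1), and from -0.573 to 0.30 between genotypes, so the numbers were not taken as a pairing. With the replicate block, 234 genes were called at baseline, *Slc7a11* after LPS was 0.073, and *Gclm* in KO was called lower (-0.53). The other comparisons kept their member counts under the block. Counts were lowest for *Nqo1* among the members, with 8 counts in its lowest library.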
